A study of Mus musculus with 2 samples.

Results

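Collagen chain genes were compared between a three-dimensional skin model built from Itih5 knockout mouse cells and a wildtype model. The members are the probe sets whose platform annotation gives exactly 1 symbol made of Col, a number, a and a number. They comprise 47 of the 33793 probe sets and 44 genes, which are also the 44 genes of that form in a RefSeq table. Another probe set lists Col6a1 together with other genes and was left out. Each model was measured once, on 1 array, and the titles of both mark day 7. The labels name keratinocytes and fibroblasts from the skin of adult mice, either Itih5 wild-type or knockout, untreated, and passaged serially in culture. The labels do not say which part of Itih5 was removed or in which cells, nor how many animals gave the cells. ITIH5 is a secreted protein that the series title links to the stability of hyaluronan in skin, and the comparison asks how expression differs with its genotype.

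Collagens are trimers of chains that wind into a triple helix along stretches in which glycine recurs at regular, close intervals. Fibrillar collagens pack into the banded fibrils that give the dermis its tensile strength, network collagens form sheets such as those of basement membranes, and FACIT collagens decorate fibril surfaces. Type VI collagen makes beaded filaments, and transmembrane collagens span the cell membrane. In skin, dermal fibroblasts make most of the fibrillar chains, while keratinocytes make type XVII and, with fibroblasts, type VII collagen, which anchor the epidermis to the dermis.

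The stretches upstream of 4 genes are shown because they stand for the chains described here: 3 genes that read higher in the knockout model, one each from fibrils, networks and beaded filaments, and Col17a1, whose value was lowest relative to wildtype. Each is the 250 bases before the annotated start, from RefSeq, build GRCm38.p6. Capitals mark matches on either strand to the CCAAT box, to the TATA box form TATAAA, to the GC box core GGGCGG and to the AP-1 form TGANTCA. Neighbouring matches can overlap or run together. The stretches lie at chr6:4505368-4505617 (plus strand), chr10:76623405-76623654 (minus strand), chr16:57754738-57754987 (minus strand) and chr19:47692043-47692292 (minus strand).
Col1a2: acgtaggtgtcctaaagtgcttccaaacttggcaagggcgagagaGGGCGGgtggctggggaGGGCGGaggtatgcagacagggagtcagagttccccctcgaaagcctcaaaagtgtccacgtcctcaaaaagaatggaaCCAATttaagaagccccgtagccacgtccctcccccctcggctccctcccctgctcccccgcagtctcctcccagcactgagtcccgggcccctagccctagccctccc
Col6a2: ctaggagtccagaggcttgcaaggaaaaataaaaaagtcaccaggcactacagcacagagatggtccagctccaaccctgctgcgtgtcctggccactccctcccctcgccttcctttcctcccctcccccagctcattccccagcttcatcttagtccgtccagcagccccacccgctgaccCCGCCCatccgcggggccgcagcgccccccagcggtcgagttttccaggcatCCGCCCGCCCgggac
Col8a1: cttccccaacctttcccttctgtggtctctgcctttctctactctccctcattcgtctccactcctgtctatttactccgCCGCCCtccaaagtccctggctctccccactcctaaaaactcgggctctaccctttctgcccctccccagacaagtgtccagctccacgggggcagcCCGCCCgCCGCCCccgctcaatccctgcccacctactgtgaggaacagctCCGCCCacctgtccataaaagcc
Col17a1: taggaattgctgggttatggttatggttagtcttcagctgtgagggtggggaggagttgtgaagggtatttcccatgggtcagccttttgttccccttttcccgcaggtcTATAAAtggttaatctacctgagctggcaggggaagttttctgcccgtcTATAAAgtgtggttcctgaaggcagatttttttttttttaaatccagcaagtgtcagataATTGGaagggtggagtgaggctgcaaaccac
Col1a2 held 2 matches to GGGCGG and 1 to CCAAT, Col6a2 held 3 to GGGCGG, and Col8a1 held 4. Col17a1 held 2 matches to TATAAA, 1 to CCAAT and 0 to GGGCGG. These letters did not divide the genes by direction, since Col3a1 and Col6a3, both higher in the knockout model, held 0 matches to GGGCGG, whereas Col7a1 and Col23a1 (1 each) and Col6a6 (2), all lower, held some. A promoter was listed for 35 of the 44 genes. Over these, GGGCGG matched in 60.0%, against 32.9% of the 27025 listed genes, while CCAAT matched in 34.3% against 34.5%, TATAAA in 5 of 35 against 3504 of 27025 genes, and TGANTCA in 2.9% against 6.9%. A match describes the letters of these windows and is not a binding site.

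The measurements are linear array intensities whose lost decimal point was restored. Of the 47 collagen probe sets, 27 had 1 possible place of the point on both arrays and 20 had several. The point was restored for 44 probe sets at a probability of at least 0.95, and 3 were left undecided. Restored values covered 42 genes, and Col4a1 and Col6a1 had none. Of the 30 expressed genes among them, 19 had 1 possible place on both arrays, and 25 kept their direction at every possible place. The 5 that would change direction at a less likely place are Col5a1, Col17a1, Col18a1, Col23a1 and Col27a1. A difference is the log2 intensity of the knockout model minus that of the wildtype model. A gene is called expressed if its higher intensity reached 47.6, the median of all values. With 1 array per model no difference has a replicate check, no p-value was computed, and the number of arrays limits the precision. Levels of different probe sets are not set against each other, since each has its own probes.

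Across the 42 restored genes, collagens lay higher in the knockout model more often than lower, and every difference of at least 2-fold was upward. They numbered 6 (Col1a1, Col4a2, Col5a2, Col6a2, Col8a1 and Col12a1), against 2.33% of all 20790 restored genes, and 0 were at least 2-fold lower, against 2.01%. Differences above 0 were found for 32 of the 42, against 52.0% of all restored genes. The median difference was 0.18, against 0.01 over all restored genes. Expressed collagens numbered 30, of which 25 reached the threshold on both arrays and 5 on 1 array. The median over the 30 was 0.42, against 0.04 over 12452 expressed genes, 3.89% of which were at least 2-fold higher and 3.35% lower. A gene expressed on 1 array enters through its higher value, and none of the 6 genes at least 2-fold higher was of that kind. At least 1.5-fold higher were 13 expressed collagens and 1 was at least as much lower, against 11.6% and 8.35% of expressed genes. Without the expression threshold these shares were 7.10% and 5.13% of all restored genes.

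**Figure D1:**
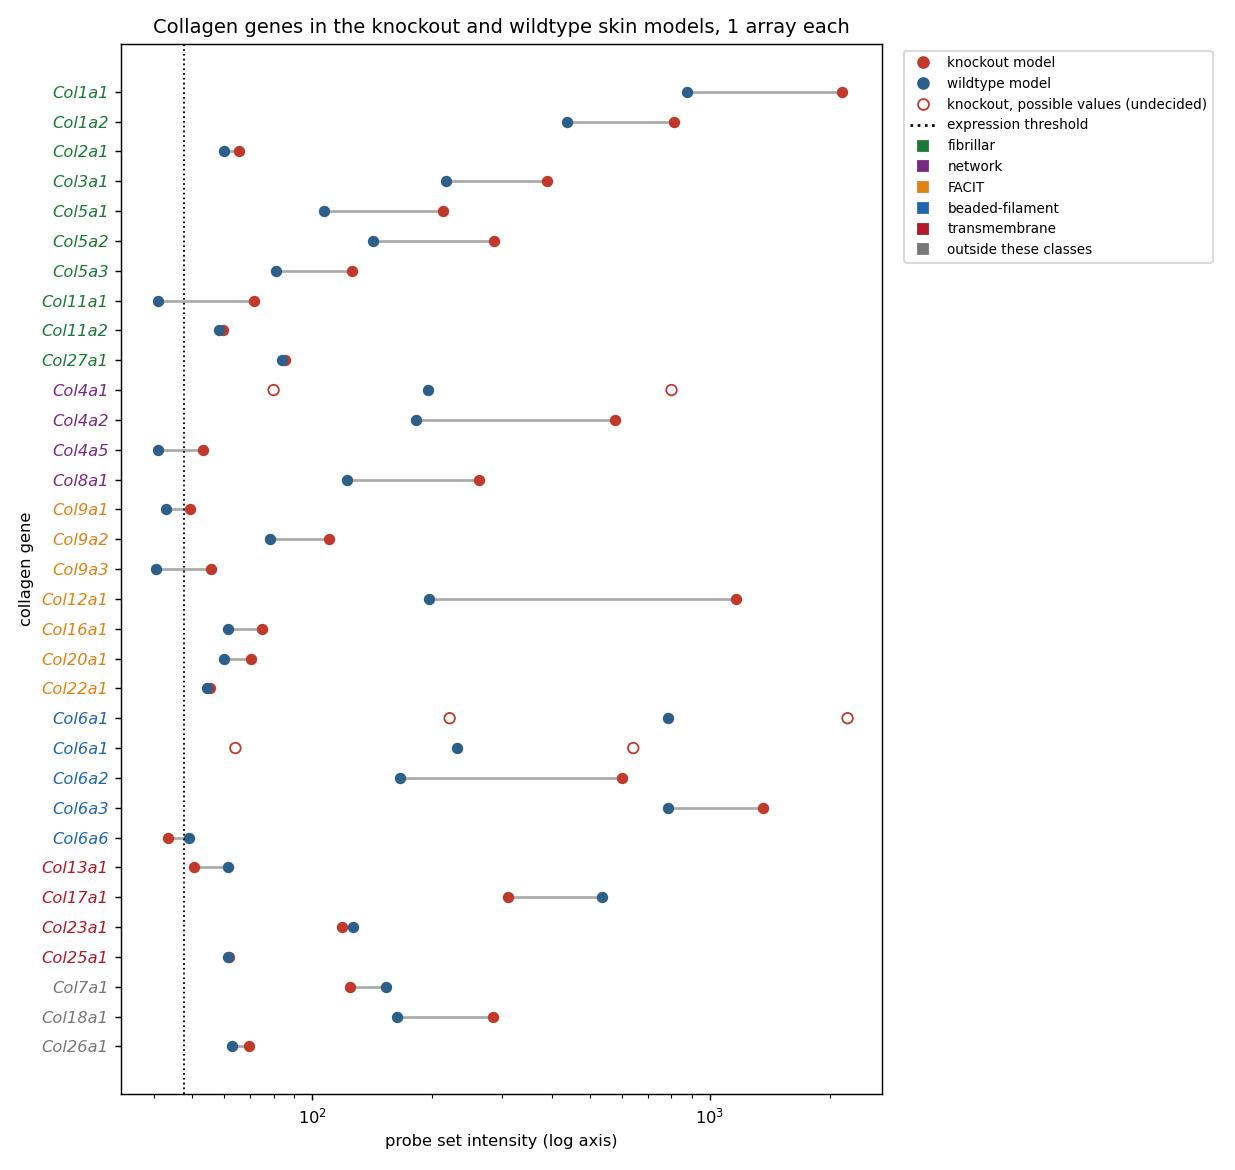
Probe set intensity (log axis) of each expressed collagen gene in the knockout (red) and wildtype (blue) model, 1 array each, with gene names coloured by class; open red circles are the possible knockout values of the 3 undecided probe sets of Col4a1 and Col6a1. The widest gap is that of Col12a1, from 197 in the wildtype to 1163 in the knockout model, and Col17a1 runs the other way.

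Fibrillar chains were higher in the knockout model as a group. All 11 genes were restored, 10 were expressed, and each of these 10 was above 0, with a median of 0.82. At least 2-fold higher were 2 of the 10, and 7 passed 1.5-fold. Col11a1 was expressed on the knockout array alone, which fixed its direction, and Col24a1, not expressed, was below 0. Col1a1, the alpha1 chain of type I collagen and the main fibril former of the dermis, read 2145 on the knockout array and 876 on the wildtype array, 2.45-fold higher (log2 difference 1.29). Its partner Col1a2, which supplies the other chain of the type I trimer, read 810 against 437, a log2 difference of 0.89. A second Col1a2 probe set read 370 against 173, a difference of 1.09, so the gene lay on either side of 2-fold depending on the probe set. Col3a1, whose homotrimers co-assemble with type I fibrils in skin, read 389 against 217 (0.84).

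The type V chains help to start fibrils and limit their diameter, and the main probe sets of Col5a1 and Col5a2 lay close to the 2-fold mark. Col5a2 read 286 on the knockout array and 142 on the wildtype array, 2.01-fold higher, and Col5a1 read 213 against 107, 1.98-fold higher. These are the genes just inside and just outside the threshold. The other Col5a1 probe set read 57.6 against 50.8, a log2 difference of 0.18, so the 2 probe sets of this gene disagree in size. Col5a3 read 126 against 81.4 (0.63).

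The remaining fibrillar genes, most of which are known from cartilage, lay near the threshold, and apart from Col11a1 their differences were small. Col11a1, an alpha chain of the cartilage fibril, read 71.4 on the knockout array and 40.9 on the wildtype array, the latter below the expression threshold. Col2a1, the main cartilage collagen, read 65.6 against 59.9, Col11a2 59.6 against 58.3, and Col27a1 85.4 against 84.2. Col24a1 was below the threshold on both arrays, with 43.2 against 44.9. Of 6 chondrocyte markers, only Sox9 was expressed (261 against 292), while Acan, Matn1, Matn3, Hapln1 and Cnmd were below the threshold in both models.

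The network collagens were split between a few chains with large differences and many near background. Of 9 genes, 8 were restored, 3 were expressed and 2 of these were at least 2-fold higher. Col4a2, a chain of the ubiquitous type IV network of basement membranes, read 576 on the knockout array and 183 on the wildtype array, 3.15-fold higher (1.66). Its trimer partner Col4a1 was undecided. The wildtype value of Col4a1 was 196, and the knockout value was either 80.0 or 800.2, a difference of -1.29 or 2.03. The first had the higher probability, 0.79, from levels and differences over all probe sets, which does not use the partner gene. Col4a1 and Col4a2 are divergent neighbours, and their annotated starts lie 21 bases apart in RefSeq.

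Col8a1, a short-chain collagen of hexagonal networks, read 263 on the knockout array and 122 on the wildtype array, 2.16-fold higher (1.11). Col8a2, which encodes the other type VIII chain, was below the threshold with 46.4 against 42.9. Col4a5, of the minor type IV networks, read 53.2 against 40.9 and was thus expressed on the knockout array alone. Col4a3, Col4a4, Col4a6 and the growth plate gene Col10a1 were below the threshold on both arrays, with differences from -0.07 to 0.16.

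FACIT collagens held the largest difference of all restored collagens. Col12a1, whose product binds the surface of type I fibrils, read 1163 on the knockout array and 197 on the wildtype array, 5.91-fold higher (log2 difference 2.56). Its point had 2 possible places on each array, and 2.56 was the smallest difference that any of them allowed. The other 6 expressed FACIT genes were under 2-fold, all above 0. Col9a2 read 110 against 78.6 (0.49), Col16a1 74.7 against 61.6 (0.28), Col20a1 70.1 against 60.2 (0.22) and Col22a1 55.4 against 54.4 (0.03). Col9a1 (49.2 against 42.8) and Col9a3 (55.8 against 40.5), which with Col9a2 make up type IX collagen of cartilage fibrils, reached the threshold on the knockout array alone. Col14a1, the relative of Col12a1 that also coats type I fibrils, was below the threshold with 35.2 against 35.0, as was Col19a1 with 32.0 against 27.5. The class had a median of 0.28 over its 7 expressed genes.

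Of the restored beaded-filament collagens, 2 were above 0 and 3 below, the latter all near background. Col6a2 and Col6a3, chains of the classical type VI trimer that surrounds fibroblasts, were higher in the knockout model, with 599 against 166 (3.61-fold, 1.85) and 1356 against 785 (1.73-fold, 0.79). Both have a further possible place of the point, at which the difference would be larger still. Col6a1, the remaining chain of that trimer, was undecided on both of its probe sets. One read 782 in the wildtype and either 222 or 2216 in the knockout model, the other 232 against either 64.2 or 642. At their likeliest places (probabilities 0.62 and 0.75) both probe sets were higher in the knockout model, by 2.83-fold and 2.77-fold, and at the other places both were lower, with log2 differences of -1.82 and -1.85. The alternative chains Col6a4, Col6a5 and Col6a6, which can stand in for the alpha3 chain, read lower in the knockout model and near background, with 34.6 against 42.5, 28.7 against 36.2 and 43.4 against 49.0. The class median over all 5 restored genes was therefore -0.17, whereas that over the 3 expressed genes was 0.79.

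Transmembrane collagens did not read higher. All 4 genes were expressed on both arrays, 3 were below 0, and the median was -0.19. Col17a1, the hemidesmosome collagen of basal keratinocytes, read 310 on the knockout array and 535 on the wildtype array, 1.72-fold lower (-0.78), the lowest difference of any restored collagen. Its place had a probability of 0.97, and the other places would put the gene higher in the knockout model. Col13a1, found at cell-matrix junctions, read 50.5 against 61.4 (-0.28), Col23a1 119 against 126 (-0.09) and Col25a1 61.8 against 61.4 (0.01).

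Of the 5 genes outside these classes, Col18a1, a basement membrane collagen whose carboxyl end gives endostatin, read 284 on the knockout array and 163 on the wildtype array (0.80). At the other possible place of its point the gene would be lower. Col7a1, the anchoring fibril collagen under the epidermis, read 125 against 154 (-0.30), and Col26a1 read 69.4 against 63.0. Col15a1, a multiplexin like Col18a1, and Col28a1 were below the threshold, with 40.0 against 38.9 and 45.1 against 38.2. In all, 12 restored collagens were below the threshold on both arrays, and their differences did not exceed 0.34 in size.

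**Figure D2:**
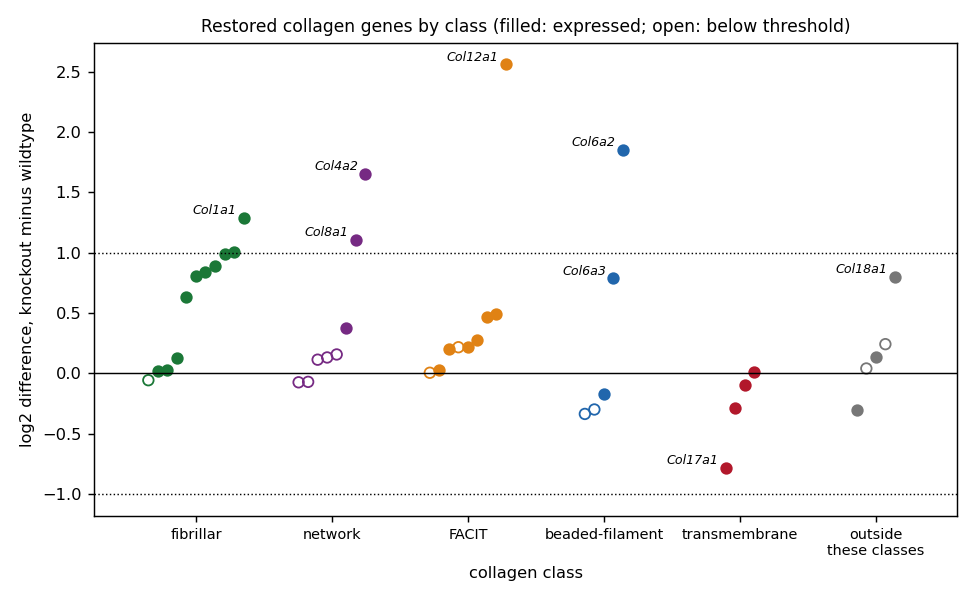
Log2 difference (knockout minus wildtype) of the 42 restored collagen genes by class, 1 point per gene, filled where expressed and open where below the threshold on both arrays; dotted lines mark 2-fold. With open points included, 10 fibrillar genes lie above 0 and 1 below, 6 network genes above and 2 below, and 9 FACIT genes above and 0 below. Of the transmembrane genes, 1 lies above 0 and 3 below.

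The expressed collagens were thus not uniform. At a stricter threshold, a higher intensity of at least 95.3, 16 collagens remained, with a median of 0.87 against 0.07 over the 8663 genes that passed it. The 6 genes at least 2-fold higher were among the 16, against 463 of the 8663 genes. Col5a3 (126 against 81.4) and Col9a2 (110 against 78.6) passed on the knockout array alone, which fixed their direction. Intensities near the background of the arrays, whose 5th percentile was 21.4 in both models, compress differences, so the weak cartilage and minor chains carry little information on size.

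Cell type markers moved alongside the collagens. Of 15 dermal fibroblast markers that are not collagens, 12 were restored and 9 expressed, and all 9 were above 0, against 54.4% of all expressed genes, with a median of 0.67 against 0.04. Of the 15, 3 (Dcn, Lum and Dpt) are also in the list of fibril-associated genes. The summed intensity of the 12 was 13812 on the knockout array and 8488 on the wildtype array. Such sums, here and for the lists below, follow the brightest probe sets most, here that of Vim. Twist2, a dermal transcription factor, read 495 against 160, Pdgfra, the gene of a platelet-derived growth factor receptor, 1988 against 1025, and Vim, the vimentin gene, 6479 against 3665. Fap (29.0 against 36.0), Lum (24.6 against 30.9) and Dpp4 (26.3 against 27.0) were below the threshold in both models and read lower in the knockout model. With them the median over the 12 restored fibroblast markers was 0.43, against 0.01 over all restored genes. Of 16 keratinocyte markers, 13 were restored and expressed, 12 of them below 0 and 6 at least 2-fold lower, against 3.35% of expressed genes at least 2-fold lower, with a median of -0.98 and sums of 17011 and 37591. Krt1 (39.8 against 54.7) was expressed on the wildtype array alone, which fixed its direction, and was not among the 6. Krt14, the basal keratin, read 4076 against 9538. Fewer cells of a type and less RNA per cell cannot be told apart in such a model, and the part of either in the collagen differences was not tested.

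**Figure D3:**
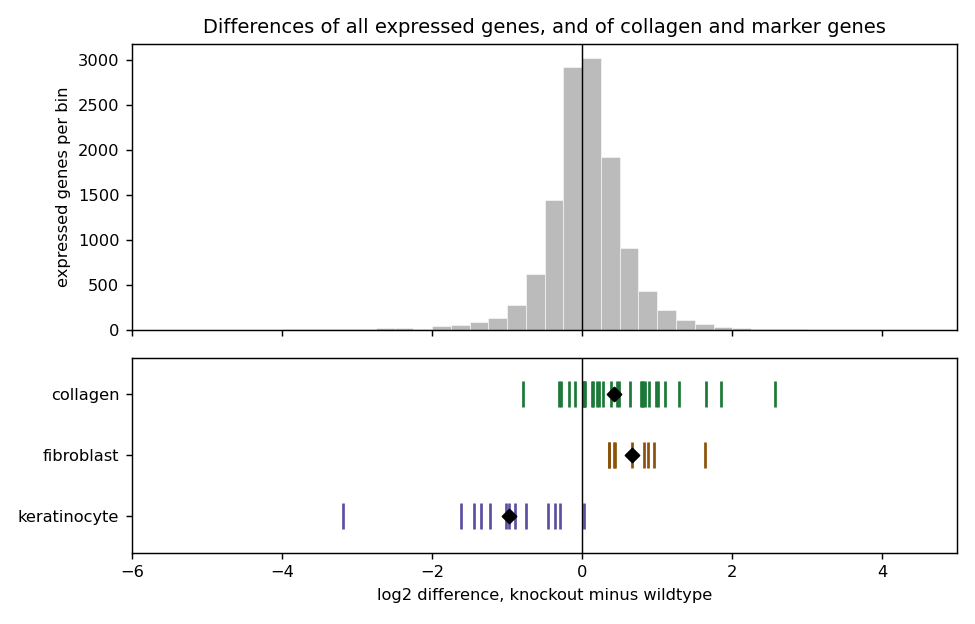
Top, number of expressed genes per bin of 0.25 in log2 difference (knockout minus wildtype); bottom, each expressed collagen, fibroblast marker and keratinocyte marker as a tick, with the median of each list as a diamond. The medians are 0.42 for collagens, 0.67 for fibroblast markers and -0.98 for keratinocyte markers.

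Markers of other cell types differed in either direction, and several defining ones were below the threshold. Of 6 restored endothelial markers, Pecam1, Cdh5, Tek and Cldn5 were below the threshold in both models, with sums of 285 and 235 over the 6. Kdr (87.4 against 36.1) and Tie1 (54.1 against 46.3) reached it in the knockout model alone, which fixed their direction. Of 5 restored smooth muscle and pericyte markers, 3 were expressed and 0 were at least 2-fold apart, with sums of 242 and 249, while Tagln and Rgs5 were below the threshold and Acta2 was undecided. Of 5 melanocyte markers, 3 were expressed and 2 of them were at least 2-fold higher, Mlana (705 against 109) and Mitf (464 against 215), with Tyr and Dct below the threshold and sums of 1297 and 444. Of 4 restored adipocyte markers, 3 were expressed and Fabp4 was at least 2-fold higher (4974 against 816), with Adipoq below the threshold and sums of 5579 and 1293. Of 4 restored macrophage and Langerhans cell markers, only Cd68 was expressed (861 against 1161), with Adgre1, Csf1r and Cd207 below the threshold and sums of 974 and 1281. Of 2 restored Schwann cell markers, Sox10 was expressed (51.3 against 66.4) and S100b was below the threshold, with sums of 89.2 and 106. The part of these cell types in the collagen differences was not tested.

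Genes that fold, trim, crosslink and bind collagen chains were also mostly higher in the knockout model. Among all expressed genes, 54.4% were above 0, 3.89% were at least 2-fold higher and 3.35% were as much lower. Of 12 restored genes for chain folding and modification, 11 were expressed, 9 above 0 and 2 below, with a median of 0.74. A 2-fold difference was reached by 4 of the 11, each of them higher in the knockout model. The 4 were Crtap, the cofactor of prolyl 3-hydroxylase (1817 against 618), P3h1, that hydroxylase (333 against 137), P4ha2, a prolyl 4-hydroxylase subunit (246 against 110), and Serpinh1, the collagen chaperone HSP47 (819 against 382). The point of P3h1, P4ha2 and Serpinh1 had several possible places, and those used had probabilities of 0.99, 0.98 and 0.99. The 2 expressed folding genes below 0 were P3h2 (85.0 against 161) and P3h4 (241 against 299). P4ha3 (69.5 against 41.6), the gene at the median, was expressed on the knockout array alone. The median over all 12 restored folding genes was 0.71. P4ha1, P4hb, Plod1 and Colgalt1 were undecided. Of 9 expressed genes for propeptide cleavage and crosslinking, the median was 0.85, all were above 0 and 3 passed 2-fold. They were the lysyl oxidase genes Loxl1 (532 against 130) and Loxl3 (272 against 110) and Pcolce, an enhancer of procollagen cleavage (537 against 255). Pcolce had several possible places of its point, and the one used had a probability of 0.99. Adamts3 (64.6 against 35.9), the gene at the median, was expressed on the knockout array alone, which fixed its direction. Tll2 (40.9 against 41.0) was restored but below the threshold in both models, and Lox was undecided. Over all 10 restored genes of this list the median was 0.75.

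Collagen receptor genes were mixed in direction. Of 4 expressed receptors, 3 were above 0 and 0 at least 2-fold apart, with a median of 0.57, and the 2 discoidin domain receptors went opposite ways, with 1933 against 974 for Ddr2 of mesenchymal cells (0.99) and 178 against 288 for Ddr1 of epithelia (-0.70). Of 6 expressed genes for collagen degradation, 1 was at least 2-fold higher, the gelatinase gene Mmp9 (197 against 64.6), and 1 lower, the collagenase gene Mmp13 (3713 against 9158), with a median of 0.63. Of 7 expressed fibril-associated genes, Thbs2 (4745 against 2085) and Sparc (2206 against 965), both of them collagen-binding matricellular proteins, were at least 2-fold higher, and the median was 0.51. The point of Sparc had several possible places, and the one used had a probability of 0.96. Without the expression threshold, medians were 0.35 over 7 restored receptor genes, 0.47 over 8 degradation genes and 0.32 over 12 fibril-associated genes. The median over all restored genes of the series was 0.01. The receptor genes Itgb1 and Mrc2 were undecided.

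The genotype label could not be checked on the array. Itih5 read 30.4 on the knockout array and 29.8 on the wildtype array, below the threshold in both.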

How the data were processed

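RNA of the 2 models was made into sense-strand cDNA (Ambion kit) and labelled (Affymetrix kit), per the labels' protocols. For the scanner software, probe summary and normalization, nothing is given in the sources used here. Values as deposited are linear intensities, 67457 of 67586 without their decimal point. A place was accepted as possible if it gave a single-precision number that is a power of 2 with a single-precision exponent, between 18 and 20000. Pairs of places were weighted by the joint distribution of level and difference in 25 rounds of expectation maximisation. A minimum probability of 0.95 restored 31841 of 33793 probe sets, 52.8 of them expected to be misplaced. The procedure was run on simulated data drawn mostly from the probe sets with 1 possible place. These probe sets also start its weighting, so the run cannot show its accuracy on unlike data. The design assumed values that needed no such step.

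Column medians were 47.4 (knockout) and 47.9 (wildtype), and no further normalization was applied. Log2 differences were computed in Python 3.11.15 with numpy 2.4.6 and pandas 2.3.3. A gene with several restored probe sets took the one with the highest mean. Genes were named through the platform annotation, which gives 1 symbol for 23521 probe sets, several for 1814 and none for 8458. Every restored expressed collagen is named, and of partner genes those at least 2-fold apart and expressed on both arrays. Ddr1, Ddr2 and the marker genes given as examples are an exception, picked with their values in view. Members and lists were chosen with earlier results of these data known. The alternatives concerned the expression filter, normalization, pseudocount, probe sets, restoration and fold.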

Additional observations from a re-analysis of the deposited data

How the results depend on the processing

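Under each setting tried, the count of collagens at least 2-fold higher stayed above that of those lower. At 1.5-fold, 13 of 30 were higher and 1 lower (Col17a1), against 1448 higher and 1040 lower of 12452 expressed genes. At 3-fold, 3 were higher and 0 lower, against 128 and 184 of the same genes. Counts change with the fold by construction of the threshold. Taking the likeliest place even where undecided gave 7 higher and 1 lower of 32, since the undecided Col6a1 and Col4a1 then counted as higher and lower. Over all 13557 genes of that setting, 667 were higher and 604 lower. Col5a2 was no longer 2-fold under quantile normalization or a pseudocount of 16, and Col5a1 became so under median centring. With 1 possible place only, 4 of 20 collagens were 2-fold higher and 0 lower, against 304 and 286 of 7343 genes.

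The median over collagens was 0.18 without a filter, 0.87 with the stricter filter, 0.56 with a filter on the mean of both arrays (chosen after seeing the data) and 0.31 with the pseudocount. The fibrillar median was 0.94 with the stricter filter, 0.71 with the pseudocount and 0.72 either with the mean over probe sets or at a minimum probability of 0.99. The network median was 0.14 without a filter, 1.38 with the stricter or mean filter and 0.74 at every likeliest place. The beaded-filament median was -0.17 without a filter or with 1 possible place only, 1.32 with the stricter or mean filter and 1.15 at every likeliest place. With the stricter filter the FACIT, transmembrane and unclassed medians were 1.53, -0.44 and 0.25, and the last became -0.0816 with 1 possible place only. Filters and restoration settings move these medians by changing which genes are in them or which probe set stands for a gene. Of 271 values of single collagens, 6 moved by over 0.1, among them Col5a1, at 0.18 with the minimum probability of 0.99, which leaves its dimmer probe set. None reversed, but reversal was scored only for genes at least 2-fold apart in the main setting. Filter, probe set and restoration settings cannot change the value of a gene with 1 restored probe set. Most of the 271 were therefore unchanged by construction and do not measure robustness. No paired analysis was possible because there is only 1 array per genotype, which also means that none could be left out.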

Other observations

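Collagen genes that neighbour each other in the RefSeq gene order of GRCm38.p6, with no other protein-coding gene between them, form 8 adjacent pairs. Col3a1 and Col5a2, a fibrillar pair, differed between the models by 0.84 and 1.01 (log2, knockout minus wildtype). Of Col6a2 and Col6a1, and of Col4a2 and Col4a1, the first stood at 1.85 and 1.66 and the second was undecided. The other pairs were near background on one or both arrays. Col4a3 and Col4a4 stood at -0.07 each, Col4a5 and Col4a6 at 0.38 and 0.13, Col9a1 and Col19a1 at 0.20 and 0.22, and the row Col6a4, Col6a5 and Col6a6, which makes up the last 2 pairs, at -0.30, -0.34 and -0.17.

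The bone sialoprotein gene Ibsp, one of 4 osteoblast markers and chosen here after its value was seen, read 84.7 on the knockout array and 754 on the wildtype array, a difference of -3.15. Its point had several possible places, and the one used had a probability of 0.9997. A difference of this size is near that of a point misplaced by 1 digit. The osteocalcin gene Bglap read 73.1 against 61.5, and Sp7 was below the threshold in both models.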
